A study of Mus musculus with 8 samples.

Results

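Selp, Sele, Vcam1, Icam1, Icam2, Alcam, Mcam, Ncam1, Chl1 and L1cam are 10 genes for leukocyte-binding and neural-type adhesion molecules, out of 30660 gene identifiers counted in mouse vascular smooth muscle cells. The list was chosen by measured values, since it was drawn up when the differences between the control and Sox6 knockdown libraries were already known. Those differences are therefore given below as a description. Where one of these genes is said to pass the threshold used for all genes, this is not read as a test. All 10 genes were in the count table. The filter on low counts (0.222 counts per 1e6, or 10 counts in a library of median size, in at least 4 libraries) was passed by 8 of the 10, each of them in all 4 libraries of both groups, and Icam2 and L1cam stayed below it.

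RNA was taken from primary vascular smooth muscle cells, the contractile cells of the vessel wall, and sequenced in bulk. The control group (titled nc, with WT given as genotype and treatment) and the Sox6 knockdown group (titled sisox6) held 4 libraries each, and no other agent, animal age or strain is named in the labels. The labels leave unsaid whether replicates were grown or taken separately. A p-value below therefore speaks to scatter among 8 libraries, and that scatter may be technical. The series title connects Sox6, a transcription factor gene of the SoxD family, with the phenotype of smooth muscle cells, autophagy and blood pressure.

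The selectins bind sugars on circulating leukocytes and slow them along the vessel wall. The immunoglobulin-type molecules VCAM-1, ICAM-1 and ICAM-2 then bind leukocyte integrins and hold the cells in place. P-selectin and E-selectin are known mainly from endothelium and platelets, whereas VCAM-1 and ICAM-1 also appear on smooth muscle cells exposed to inflammatory cytokines. ALCAM and MCAM act in contacts between vascular cells and with leukocytes or matrix, and NCAM1, CHL1 and L1 are best known from axon growth and contact between neurons.

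The stretches of genome before the RefSeq start sites of 4 of these genes are shown because Selp, Sele and Icam1 carry the letters of promoter motifs known from inflammatory induction, and Chl1 is the gene with the next largest difference after Selp. They were taken from RefSeq on build GRCm38.p6, end at the base before the start site that RefSeq gives, and run 5′ to 3′ on the gene's strand. The gene positions given below are from GENCODE, whose starts are the same for Selp and Sele, lie 45 bases further downstream for Icam1 and lie 290 bases further upstream for Chl1, so that the Chl1 stretch is inside the gene as GENCODE draws it. Capitals mark matches to the motifs searched.
Selp (chr1:164115014-164115263, + strand): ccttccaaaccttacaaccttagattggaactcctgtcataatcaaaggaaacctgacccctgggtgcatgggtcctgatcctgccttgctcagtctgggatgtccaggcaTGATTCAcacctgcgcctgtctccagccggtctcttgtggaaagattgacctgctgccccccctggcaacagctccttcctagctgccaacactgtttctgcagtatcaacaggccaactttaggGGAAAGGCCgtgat
Sele (chr1:164047984-164048233, + strand): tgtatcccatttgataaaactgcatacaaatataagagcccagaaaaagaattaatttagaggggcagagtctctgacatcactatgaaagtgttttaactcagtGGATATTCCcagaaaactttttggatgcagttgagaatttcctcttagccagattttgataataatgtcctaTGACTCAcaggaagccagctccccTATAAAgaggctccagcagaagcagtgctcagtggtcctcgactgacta
Icam1 (chr9:21015690-21015939, + strand): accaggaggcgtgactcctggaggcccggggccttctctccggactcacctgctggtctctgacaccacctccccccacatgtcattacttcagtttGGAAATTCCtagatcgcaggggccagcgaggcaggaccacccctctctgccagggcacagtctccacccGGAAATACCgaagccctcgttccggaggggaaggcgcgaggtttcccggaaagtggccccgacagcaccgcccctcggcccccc
Chl1 (chr6:103510626-103510875, + strand): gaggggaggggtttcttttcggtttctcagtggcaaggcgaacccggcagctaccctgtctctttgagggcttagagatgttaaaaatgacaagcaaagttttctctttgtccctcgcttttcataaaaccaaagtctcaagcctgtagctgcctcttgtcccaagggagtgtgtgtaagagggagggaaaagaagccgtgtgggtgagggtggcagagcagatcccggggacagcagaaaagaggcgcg

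Promoter windows of 300 bases, 250 before and 50 after the start site, were at hand for 7 of the 10 genes (all but Vcam1, Icam2 and Ncam1). Both strands were searched, and offsets count the bases from the start site to the first letter of the match. The NF-kB motif GGNNNTTCC was found in Icam1 at -153 (GGAAATTCC, which reads as a match on both strands) and at -84 (GGAAATACC), in Sele at -145 (GGATATTCC) and in Selp at -14 (GGAAAGGCC). It also occurs in 18.5% of the 32851 windows in the table. The AP-1 motif TGANTCA was found in Sele at -73 (TGACTCA) and in Selp at -139 (TGATTCA), against 7.81% of all windows. The TATA motif TATAAA was found in Sele at -49 and in Icam1 at 13, against 13.6% of all windows. The Icam1 match lies beyond the RefSeq start site, and so outside the stretch printed. It lies before the GENCODE start, which is 45 bases further downstream. The SOX letters AACAAT, the TEAD letters GGAATG and the GATA letters AGATAA were found in none of the 7 genes' windows, against 10.7%, 14.7% and 11.2% of all windows. All windows follow RefSeq start sites. Those of Mcam and Alcam lie 189 and 993 bases inside the gene as GENCODE draws it, and those of L1cam 15271 and 15315 bases. Windows at the GENCODE starts were not searched. Matches of different motifs did not overlap. A match is a run of letters and not a measured binding site.

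Sox6 itself was close to the detection limit. It was read 6, 10, 6 and 4 times in control replicates 1 to 4 and 2, 4, 0 and 0 times in knockdown replicates 1 to 4. Scaled to total counts, all 4 knockdown values lay below the lowest control (0.144 ± 0.0527 against 0.0318 ± 0.0394 CPM, SD, n = 4 each, exact permutation test, two-sided p = 0.0286, the smallest that 4 against 4 allows). Sox6 was below the filter on low counts, and without that filter it did not pass over all genes (log2 fold change -2.13, edgeR adjusted p = 0.0774). Total counts ran from 37604102 to 49393224 per library, so that 3 counts, the limit that a count of 0 allows, correspond to 0.0607 to 0.0798 CPM, that is, counts scaled to library size. Of the smooth muscle markers, Acta2 and Pdgfrb were the most abundant (1240 and 921 CPM in controls), and the 12 markers summed to between 2090 and 2524 CPM in controls and between 2438 and 2810 CPM in knockdowns. Rgs5 alone went from 102 to 584 CPM, and the other 11 summed to between 1991 and 2415 CPM and between 1837 and 2196 CPM. Of 11 tested, 2 were higher and 5 lower, Acta2, Smtn, Des, Cspg4 and Mylk, against 25.4% and 26.0% of all tested genes. The calponin gene Cnn1 and the smooth muscle myosin gene Myh11 were low (2.23 and 5.90 CPM in controls), and Tagln, a defining smooth muscle gene, held 20 counts in all controls and 38 in all knockdowns. Genes on the other strand overlap 67.9% of the Tagln exon length, and how reads there were counted is not known, so its level cannot be read from these counts. The fibroblast markers, led by Col1a1 and Col3a1, summed to between 2692 and 2857 CPM in controls and between 2357 and 2627 CPM in knockdowns. Without Col1a1 the other 6 summed to between 751 and 876 CPM and between 900 and 1053 CPM. Of the 7 markers 3 were higher and 2 lower, against the same 25.4% and 26.0% of all tested genes.

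Among the selectins, P-selectin transcripts were abundant in the control cells and about 6.7 times lower in the knockdown cells, and E-selectin transcripts were rare in both groups and lower in the knockdown cells. Selp (ENSMUSG00000026580, mm10 chromosome 1, 164115264 to 164150026) stood at 119, 113, 111 and 112 CPM in the controls and at 16.8, 17.8, 17.4 and 15.6 CPM in the knockdowns. The groups were far apart and each was tight, with coefficients of variation of 3.24% and 5.74%. The means were 113.5 ± 3.68 and 16.9 ± 0.969 CPM (SD, n = 4 each), a log2 fold change of -2.75 ± 0.05 (SE, edgeR), which left 14.9% of the control level. By the size of its decrease Selp was at place 77 among all tested genes. Exons of Selp are overlapped over 14.1% of their length by Gm16548 and Gm16587 on the other strand, which held 26 and 59 counts in the controls and 4 and 8 in the knockdowns, against 19680 and 3093 for Selp.

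Sele (ENSMUSG00000026582, chromosome 1, 164048234 to 164057677) stood at 2.88, 1.39, 2.06 and 2.42 CPM in the controls and at 0.771, 0.853, 0.945 and 1.01 CPM in the knockdowns. All knockdown values lay below all control values, and control replicate 2 was the control nearest to them. The means were 2.19 ± 0.628 and 0.895 ± 0.106 CPM (SD, n = 4 each), a log2 fold change of -1.29 ± 0.23 (SE). These values rest on 378 counts in the controls and 164 in the knockdowns. For each Sele count there were 55.5 ± 17.7 Selp counts in the controls and 19.1 ± 2.86 in the knockdowns (SD, n = 4 each), and the lowest control ratio, 41.2, lay above the highest knockdown ratio, 21.8.

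**Figure D1:**
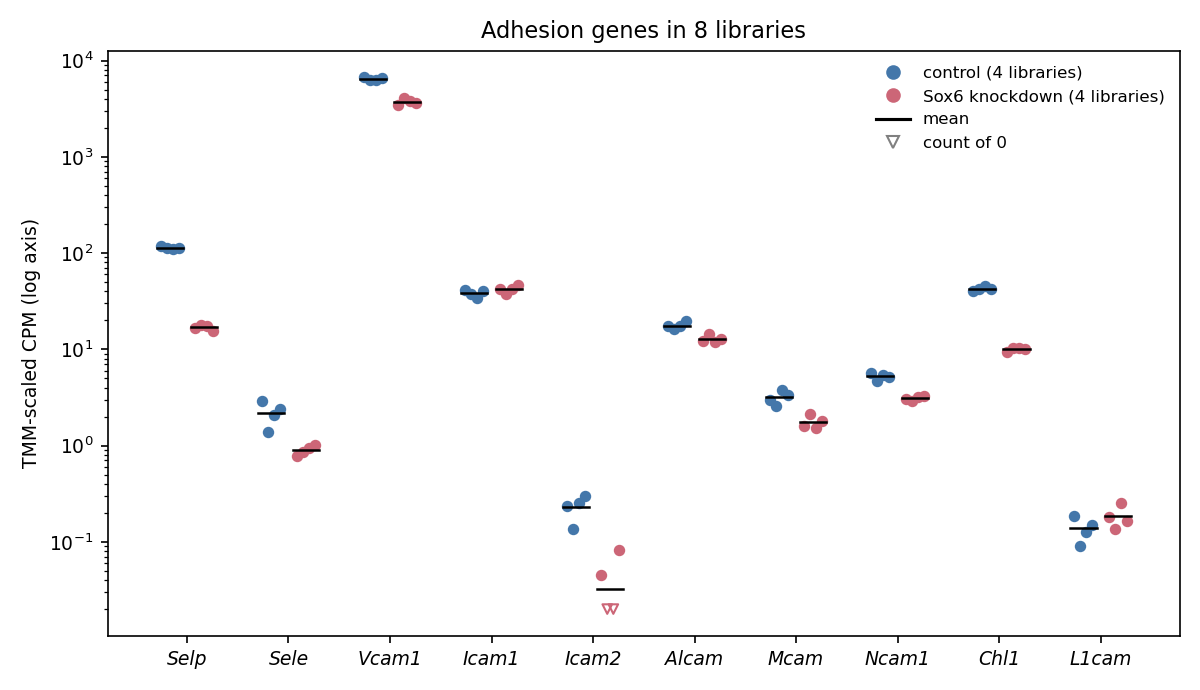
TMM-scaled CPM (vertical log axis) of the 10 adhesion genes in the 4 control libraries (blue) and the 4 Sox6 knockdown libraries (red), with a black bar at each mean. Open triangles near the foot of the axis mark counts of 0 and are not values. Selp (mean 113.5 against 16.9 CPM) and Chl1 (42.7 against 10 CPM) show the widest gaps among the 8 genes that passed the filter, and the values of Icam1 and L1cam overlap.

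Of the 3 vascular immunoglobulin-type genes, Vcam1 was by far the most abundant and was lower in the knockdown cells, Icam1 overlapped between the groups, and Icam2 was nearly absent. Vcam1 (ENSMUSG00000027962, chromosome 3, 116109949 to 116129688), the ligand of the integrin alpha 4 beta 1, stood at 6691, 6306, 6324 and 6633 CPM in the controls and at 3416, 4081, 3818 and 3610 CPM in the knockdowns. The highest knockdown value, that of replicate 2, was well below the lowest control. The means were 6489 ± 202 and 3731 ± 285 CPM (SD, n = 4 each), a log2 fold change of -0.80 ± 0.05 (SE). Vcam1 alone took 0.626 ± 0.0186% of all counts in the controls and 0.386 ± 0.0331% in the knockdowns (SD, n = 4 each).

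Icam1 (ENSMUSG00000037405, chromosome 9, 21015985 to 21028817), the ligand of the leukocyte integrins LFA-1 and Mac-1, stood at 41.8, 37.9, 33.8 and 40.6 CPM in the controls and at 42.6, 37.8, 41.9 and 46.6 CPM in the knockdowns. The groups overlapped, with knockdown replicate 2 inside the control range. The means were 38.5 ± 3.53 and 42.2 ± 3.62 CPM (SD, n = 4 each), a log2 fold change of 0.13 ± 0.07 (SE), which did not pass the threshold used for all genes. It passed as higher with scaling to total counts (0.23) and without knockdown replicate 2 (0.18). For each Icam1 count there were 169 ± 12.1 Vcam1 counts in the controls and 89.2 ± 13.8 in the knockdowns, and the ranges, 160 to 187 and 77.4 to 108, did not meet. Gm47079 on the other strand overlaps 11.7% of the Icam1 exon length and held 16 and 23 counts.

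Icam2 (ENSMUSG00000001029, chromosome 11), a ligand of LFA-1 that endothelium carries without induction, held 10, 6, 12 and 12 counts in the controls and 2, 0, 0 and 4 in the knockdowns. The knockdown counts were all below the control counts, on 46 counts in all. Knockdown counts were 0.152 times control counts, with an exact binomial 95% interval of 0.0528 to 0.361, or 0.0290 to 0.513 for halved counts, should both reads of a pair have been counted. These intervals cover counting error only.

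ALCAM and MCAM transcripts were both lower in the knockdown cells, by less than those of Selp. Alcam (ENSMUSG00000022636, chromosome 16, 52248996 to 52454074), which encodes the ligand of the T cell receptor CD6, stood at 17.3, 16.2, 17.4 and 19.6 CPM in the controls and at 12.1, 14.4, 12.0 and 12.8 CPM in the knockdowns. The groups did not overlap, although knockdown replicate 2 came near the lowest control. The means were 17.6 ± 1.42 and 12.8 ± 1.11 CPM (SD, n = 4 each), a log2 fold change of -0.46 ± 0.08 (SE). Mcam (ENSMUSG00000032135, chromosome 9, 44134469 to 44142727), which encodes a laminin-binding molecule of vessel wall cells, stood at 2.98, 2.61, 3.75 and 3.34 CPM in the controls and at 1.59, 2.13, 1.51 and 1.80 CPM in the knockdowns. Here too the groups did not overlap. The means were 3.17 ± 0.490 and 1.76 ± 0.280 CPM (SD, n = 4 each), a log2 fold change of -0.85 ± 0.17 (SE).

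Of the neural-type genes, Chl1 was clearly present and about 4.3 times lower in the knockdown cells, Ncam1 was scarce and lower, and L1cam was near the detection limit in both groups. Chl1 (ENSMUSG00000030077, chromosome 6, 103510586 to 103750211), a member of the L1 family, stood at 40.6, 42.6, 45.4 and 42.2 CPM in the controls and at 9.39, 10.3, 10.3 and 9.98 CPM in the knockdowns. Each group was tight, with coefficients of variation of 4.69% and 4.39%. The means were 42.7 ± 2.00 and 10 ± 0.439 CPM (SD, n = 4 each), a log2 fold change of -2.09 ± 0.06 (SE), which left 23.4% of the control level. Ncam1 (ENSMUSG00000039542, chromosome 9, 49502136 to 49798925), whose product binds itself on neighbouring cells, stood at 5.72, 4.68, 5.41 and 5.19 CPM in the controls and at 3.06, 2.91, 3.19 and 3.24 CPM in the knockdowns. The groups did not overlap. The means were 5.25 ± 0.435 and 3.10 ± 0.15 CPM (SD, n = 4 each), a log2 fold change of -0.76 ± 0.11 (SE). L1cam (ENSMUSG00000031391, chromosome X), the founding gene of the L1 family, held 8, 4, 6 and 6 counts in the controls and 8, 7, 10 and 8 in the knockdowns. These overlapped, and the ratio of knockdown to control came to 1.40 (exact 95% interval 0.800 to 2.47), so that no difference was detectable at this depth.

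Counted over the 8 genes that passed the filter, 7 were lower, 0 were higher and 1 was not past an edgeR adjusted p of 0.05, in a table where 51.5% of the 16150 tested genes passed in either direction, 26.0% as lower and 25.4% as higher. In the same 7 genes all knockdown values lay below all control values, which was so for 24.0% of all tested genes, while 22.8% of all tested genes, and 0 of the 8, lay wholly above. The median log2 fold change was -0.82 over these 8 genes and 0.02 over all tested genes. Since the genes were chosen with this contrast known, nothing is read from these counts. With scaling to total counts the median of all tested genes moved to 0.12 and the split of all calls from 4105 higher and 4206 lower to 5926 higher and 3045 lower; the 7 genes that were lower stayed lower, and Icam1 passed as higher.

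**Figure D2:**
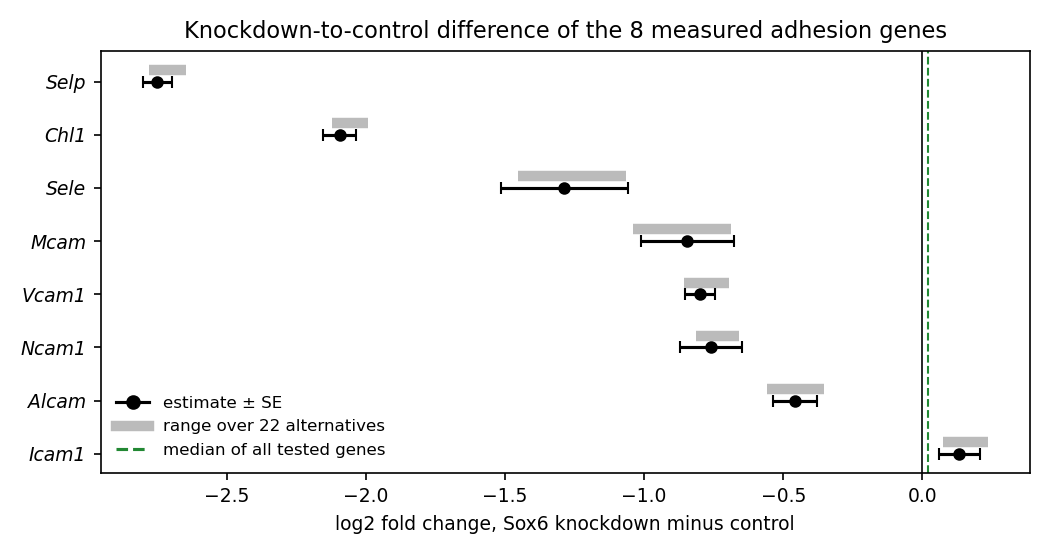
Log2 fold change (horizontal axis, knockdown minus control) of the 8 adhesion genes that passed the filter, as estimate ± SE (black) with the range over 22 alternative ways of processing (grey bars) and the median of all tested genes (green dashed line, 0.02). The 7 genes from Selp (-2.75) to Alcam (-0.46) lie left of 0 with their whole grey range, and the range of Icam1 runs from 0.07 to 0.23.

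Compared per length of transcript, as TPM (counts divided by the summed exon length of a gene and scaled to a fixed total), the control cells showed the order Vcam1, Selp, Icam1, Chl1, Alcam, Mcam, Sele, Ncam1, Icam2 and L1cam. The TPM levels in the controls were 2459 ± 75.9 for Vcam1, 86.5 ± 2.48 for Selp, 29.7 ± 2.49 for Icam1, 11.7 ± 0.682 for Chl1 and 8.32 ± 0.701 for Alcam (SD, n = 4). These were followed by 3.18 ± 0.534 for Mcam, 2.53 ± 0.726 for Sele, 2.04 ± 0.182 for Ncam1, 0.410 ± 0.123 for Icam2 and 0.0637 ± 0.0184 for L1cam. Mcam overlapped with Sele, and Sele with Ncam1, and the other neighbours in this order did not overlap. Vcam1 was the gene at rank 42 of the whole table in the controls and at rank 69 in the knockdowns, and made up 94.5% of the summed TPM of the 10 genes in controls and 96.0% in knockdowns.

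In the knockdown cells the TPM order changed at several places. Icam1, at 34.0 ± 2.84 TPM, stood above Selp, at 13.4 ± 0.874 TPM, and Alcam, at 6.32 ± 0.587 TPM, above Chl1, at 2.86 ± 0.171 TPM (SD, n = 4), whereas in controls each of these pairs stood the other way round. Vcam1 remained the highest at 1477 ± 133 TPM. Mcam, Ncam1 and Sele followed at 1.84, 1.26 and 1.08 TPM, the latter pair overlapping, and L1cam and Icam2, at 0.0882 and 0.0585 TPM, overlapped too. With the length of the longest transcript in place of all exons the control level of Vcam1 became 4067 TPM, and the order in controls differed only in that Sele and Ncam1 changed places.

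Some markers of other cells were lower in the knockdowns too, and some were not. The 13 endothelial markers summed to between 17.6 and 19.7 CPM in the controls and between 12.2 and 14.3 CPM in the knockdowns, with Ecscr and Vwf the most abundant. Of the 9 that were tested, 6 were lower and 1, Vwf, was higher at an edgeR adjusted p of 0.05. This is 77.8% of them, against 51.5% of all tested genes. With total count scaling 5 were lower and 2 higher. Cdh5, Tek and Tie1, all counted as lower, passed the filter through the controls only, the group where they are high. Nothing is therefore read from the share of 77.8%. Kdr, named here after its values were seen, passed through both groups. It fell from 3.30 ± 0.564 to 0.612 ± 0.272 CPM (SD, n = 4 each), a log2 fold change of -2.41 ± 0.25 (SE). The 2 most abundant markers did not fall: Vwf rose from 1.10 to 3.14 CPM, and Ecscr did not pass, at 5.44 and 6.07 CPM. Emcn, Robo4, Erg and Sox17, all defining endothelial genes, stayed below 0.5 CPM in every library. In both groups the CPM of Selp alone was above the summed CPM of all 13 markers. In the knockdowns the margin was small, with 15.6 CPM as the lowest Selp value and 14.3 CPM as the highest sum. Levels of different genes do not show which cells the Selp reads came from. The part of endothelial cells in the values of Selp, Sele, Icam2 and Mcam was not tested, and in bulk RNA fewer cells of a type and less RNA per cell cannot be told apart.

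The 5 platelet markers summed to between 3.40 and 4.46 CPM in the controls and between 5.47 and 6.82 CPM in the knockdowns, with Pf4, Ppbp, Gp1ba and Gp9 below 0.5 CPM in every library and nearly all of the sum from Itga2b. The 7 leukocyte markers found summed to between 33.3 and 38.2 CPM and between 34.9 and 39.9 CPM, led by Csf1r and Lyz2. Ptprc, Adgre1 and Cd3e stayed below 0.5 CPM. Without Csf1r the other 6 summed to between 3.53 and 5.62 CPM in the controls and between 5.92 and 7.17 CPM in the knockdowns. Of 3 tested, 1, Cd68, was higher (1.66 ± 0.405 and 3.01 ± 0.412 CPM, SD, n = 4 each), and 2 did not pass. The 8 Schwann and neural markers, led by Tubb3, summed to between 27.5 and 35.1 CPM in the controls and between 22 and 28.8 CPM in the knockdowns, with Sox10, S100b, Gfap, Rbfox3 and Snap25 below 0.5 CPM. Without Tubb3 the other 7 summed to between 1.37 and 2.15 CPM and between 1.67 and 2.39 CPM. The 7 mesothelial markers, led by Krt19 and Lrrn4, summed to between 213 and 232 CPM in the controls and between 135 and 154 CPM in the knockdowns. Of the 7, 5 were lower, against 26.0% of all tested genes. Krt19, the most abundant, did not fall with the sum and did not pass, at 68.9 and 76.3 CPM. Krt8 did not pass either, at 6.33 and 5.73 CPM. With total count scaling 5 were lower and 1 higher. The part of these cells in the values of Chl1, Ncam1 and Vcam1 was not tested.

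On the side of the ligands, the alpha 4 integrin gene, whose product binds VCAM-1, fell, and its beta partners moved in opposite directions. Of 17 genes for leukocyte ligands and counter-receptors, 11 were tested, and 2 rose, 4 fell and 5 did not pass. Thus 54.5% of the tested genes in this list were called, against 51.5% of all tested genes. The median log2 fold change was -0.06, against 0.02 over all genes, and 3 rose and 4 fell with total count scaling. This and the next 5 lists were chosen with earlier results known, so nothing is read from these shares. Itga4, the alpha 4 chain that binds VCAM-1, fell from 5.82 ± 0.535 to 0.741 ± 0.162 CPM (SD, n = 4 each; log2 fold change -2.96 ± 0.17 SE, edgeR adjusted p = 3.32e-09). Itgb1, its beta 1 partner, fell from 808 ± 23.4 to 611 ± 12.4 CPM (-0.40 ± 0.04, edgeR adjusted p = 8.0e-07), and Cd44, a hyaluronan receptor that can carry selectin ligands, fell from 453 ± 10.1 to 319 ± 22.8 CPM (-0.51 ± 0.05, edgeR adjusted p = 9.9e-07). Itgb7, the other beta partner of alpha 4, rose from 3.8 ± 0.208 to 8.50 ± 0.264 CPM (1.16 ± 0.09, edgeR adjusted p = 9.74e-08).

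Itga9, an alpha chain that also binds VCAM-1 and that is named here after its values were seen, held 198 counts in the controls and 27 in the knockdowns, a ratio of 0.138 with an exact 95% interval of 0.0890 to 0.208. It is among the 4 counted as fallen but met the filter in all libraries of the controls only, the group where it is high, so its call is not read as a test. Selplg, the gene of the main P-selectin ligand PSGL-1, held 8 counts in each group. Itgal, Itgam, Itgax and Itgad, the alpha chains of the ICAM-binding leukocyte integrins, held 22 and 12, 2 and 4, 6 and 0, and 2 and 6 counts in the controls and knockdowns. Other genes overlap 68.7% of the Itgam and 19.7% of the Itgad exon length, so low counts of these genes need not mean near absence. Their partner Itgb2 did not pass the threshold, at a log2 fold change of -0.05 ± 0.11.

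Among the enzymes that build selectin ligands and polysialic acid, St3gal4 rose and B4galt1 fell, both by small amounts. Of 12 such genes 7 were tested, and 2 rose, 1 fell and 4 did not pass. Thus 42.9% of those tested were called, against 51.5% of all tested genes. The median was -0.05, and 3 rose and 0 fell with total count scaling. Fut7, the fucosyltransferase of selectin ligands, held 20 counts in the controls and 76 in the knockdowns, a ratio of 3.86 with an exact 95% interval of 2.33 to 6.67. It is among the 2 counted as risen, but it met the filter through the knockdowns only, the group where it is high, and was below the filter with halved counts, so its call is not read as a test. St3gal4 rose from 64.3 ± 1.34 to 72.4 ± 3.08 CPM (SD, n = 4 each; 0.17 ± 0.04 SE, edgeR adjusted p = 0.00387). B4galt1 fell from 232 ± 6.58 to 211 ± 2.57 CPM (-0.14 ± 0.04, edgeR adjusted p = 0.00504), but not past the threshold when scaled to total counts (-0.04, edgeR adjusted p = 0.37). St8sia2 and St8sia4, which attach polysialic acid to NCAM1, held 8 and 10 counts in the controls and 0 in the knockdowns. Both were below the filter. The exact 95% intervals of their ratios reached up to 0.595 and 0.453, and up to 1.54 and 1.11 for halved counts. With halved counts no difference was thus detectable.

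Partners of MCAM and of the neural adhesion molecules moved in both directions. Of 16 genes 12 were tested, and 2 rose, 7 fell and 3 did not pass. Thus 75% of those tested were called, against 51.5% of all tested genes. The median was -0.19, and 4 rose and 5 fell with total count scaling. Gfra1, counted as risen, and Cntn2, counted as fallen, passed the filter through 1 group only. The semaphorin receptor Nrp1 fell from 200 ± 4.2 to 136 ± 3.11 CPM (SD, n = 4 each; -0.56 ± 0.04 SE, edgeR adjusted p = 2.04e-08). The secreted ligand Wnt5a (-0.59 ± 0.06) and the galectin Lgals1 (-0.43 ± 0.04) fell too, and the growth factor receptor Fgfr1, which interacts with NCAM1 and L1, rose from 344 ± 24.2 to 426 ± 25.7 CPM (0.31 ± 0.06, edgeR adjusted p = 0.000299).

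Of 41 other immunoglobulin-type adhesion genes 40 were in the table and 23 were tested, and 4 rose, 12 fell and 7 did not pass. Thus 69.6% of those tested were called, against 51.5% of all tested genes. The median was -0.24, and 4 rose and 12 fell with total count scaling as well. Igsf11, counted as risen, and Thy1, counted as fallen, passed the filter through 1 group only. The contact molecule Nectin2 fell from 107 ± 5.07 to 68.8 ± 2.65 CPM (SD, n = 4 each; -0.64 ± 0.05 SE, edgeR adjusted p = 4.8e-08), and the related gene Pvr fell from 81.0 ± 3.57 to 51.4 ± 3.54 CPM (-0.66 ± 0.05, edgeR adjusted p = 1.73e-07). The junction gene F11r fell by 0.45 on the log2 scale. Mpzl1, which encodes a cell surface receptor, rose from 11.2 ± 1.33 to 19.0 ± 1.19 CPM (0.76 ± 0.08, edgeR adjusted p = 3.47e-06).

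Of 28 cytokine receptors and transcription factors known to act on the promoters of these genes, 26 were tested. Among these, 2 rose, 13 fell and 11 did not pass, so that 57.7% were called, against 51.5% of all tested genes. The median was -0.14, and 5 rose and 10 fell with total count scaling. Ets1, a transcription factor of vascular cells, fell from 66.3 ± 2.45 to 44.4 ± 2.33 CPM (SD, n = 4 each; -0.58 ± 0.05 SE, edgeR adjusted p = 2.12e-07). The interleukin-1 receptor Il1r1 fell from 23.6 ± 1.29 to 15.1 ± 1.23 CPM (-0.65 ± 0.07, edgeR adjusted p = 2.84e-06), and the chromatin protein gene Hmga1 fell by 0.43 on the log2 scale. The interferon gamma receptor chain Ifngr2 rose from 212 ± 2.27 to 282 ± 14.7 CPM (0.41 ± 0.04, edgeR adjusted p = 1.64e-06). Among the NF-kB genes, named here after their values were seen, Rela (-0.18 ± 0.04) and Nfkb1 (-0.22 ± 0.04) fell by small amounts, and Relb, Rel and Nfkb2 did not pass, at -0.12, -0.04 and -0.07.

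All 12 genes for sheddases, which release adhesion molecules from the surface, and for proteins that link them to actin were tested. Among these, 3 rose, 5 fell and 4 did not pass, so that 66.7% were called, against 51.5% of all tested genes. The median was 0.02, and 4 rose and 5 fell with total count scaling. The linkers Actn1 and Actn4 fell from 560 ± 15.8 to 338 ± 10.3 CPM and from 741 ± 23.8 to 508 ± 25 CPM (SD, n = 4 each; -0.73 ± 0.04 and -0.54 ± 0.04 SE, edgeR adjusted p = 2.55e-09 and 1.53e-07). Rdx and Msn, whose products tie ICAM and VCAM tails to actin, fell by 0.43 and 0.31. The sheddases Adam10 and Adam17 did not pass, at 0.07 and -0.02.

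**Figure D3:**
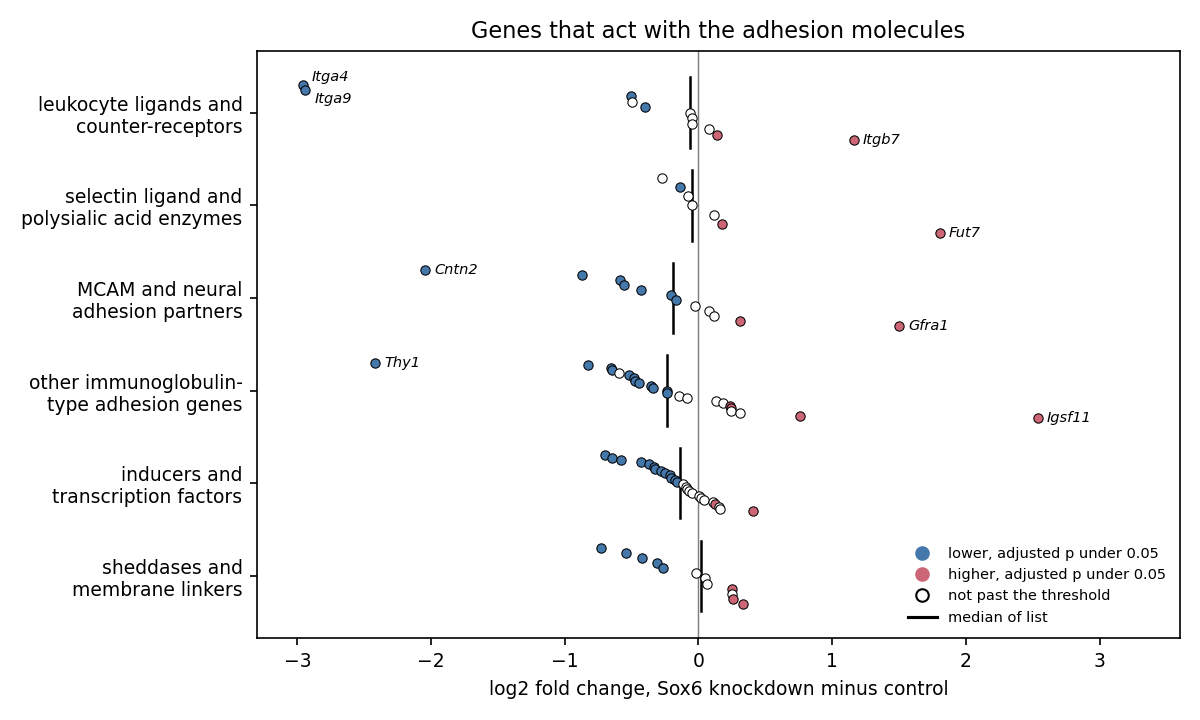
Log2 fold change (horizontal axis, knockdown minus control) of each tested gene in 6 lists of genes that act with the adhesion molecules, in blue where lower and in red where higher at an edgeR adjusted p under 0.05, with a black bar at the median of each list. The medians lie between -0.24 and 0.02, and Itga4 (-2.96) lies farthest to the left. Among the called genes, Itga9, Fut7, Cntn2, Gfra1, Thy1 and Igsf11 met the filter through 1 group only. Clmp and Kirrel3, which were not past the threshold, did so too.

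The genes whose profiles over the 8 libraries lay closest to that of Selp, by Euclidean distance of log2 CPM centred on the control mean among 11836 genes, were Ankrd1 (distance 0.29), Gdf6 (0.40) and Lmcd1 (0.40). Ankrd1, a stretch-responsive gene of muscle cells, averaged 459 ± 19.9 CPM without and 73.3 ± 6.70 CPM with the knockdown (SD, n = 4 each), and Gdf6 at 80.1 ± 1.65 and 11.9 ± 1.81 CPM. Closest to Chl1 were Timp3 (0.10), Il33 (0.32) and Siglecg (0.35). Timp3, an inhibitor of metalloproteinases and of the sheddase ADAM17, stood at 654 ± 8.87 CPM in controls and 154 ± 5.97 CPM in knockdowns, and the cytokine gene Il33 at 99.9 ± 2.82 and 25.4 ± 1.33 CPM. The distances include the contrast that chose the genes, and a gene with a like difference between the groups lies close.

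The genes next to the 10 in the genome moved in both directions. The nearest 2 protein-coding genes on each side were taken, a rule set after the values were seen. This gave 37 neighbours outside the list, of which 27 were tested. Of these, 6 rose and 5 fell at an edgeR adjusted p of 0.05. Over all tested genes 25.4% passed as higher and 26.0% as lower, so nothing is read from this count. Near Selp on chromosome 1, Slc19a2 rose from 47.5 ± 1.52 to 58.2 ± 2.35 CPM (SD, n = 4 each; 0.29 ± 0.04 SE, edgeR adjusted p = 7.68e-05). Next to Vcam1, Extl2 rose from 29.6 ± 1.47 to 32.9 ± 1.10 CPM (0.15 ± 0.05, edgeR adjusted p = 0.0262). Next to Icam2, Ern1 fell from 66.2 ± 3.44 to 48.7 ± 1.59 CPM (-0.44 ± 0.05, edgeR adjusted p = 2.58e-06). Next to Icam1, Icam5 did not pass, at 0.25 ± 0.27, and next to Chl1 the contactin genes Cntn3, Cntn4 and Cntn6 were below the filter.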

How the data were processed

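RNA from 4 control and 4 Sox6 knockdown libraries was analysed from raw read counts per gene as deposited, made with mm10 and DESeq2 among the tools, per the submitters' processing notes. Extraction was with TRIzol and libraries came from a NEBNext Ultra kit, per the labels' protocols. Which aligner and counter were used, and whether strand was kept, is not given in the sources used here, so reads of a gene and of an antisense gene cannot be told apart. Between 72.0% and 74.2% of low counts were even in each library, as when both reads of a pair are counted, so halved counts were tried as an alternative. Symbols came from GENCODE M21 for 30008 of 30660 identifiers.

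Genes were kept by filterByExpr (minimum count 10), which left 16150, scaled by TMM and tested by the edgeR 4.0.16 quasi-likelihood test in R 4.3.3 over all 8 libraries without covariates, with Benjamini-Hochberg adjustment over all genes and a threshold of 0.05. CPM use TMM library sizes, except for Sox6. The test was first tried on simulated data. Alternatives were other scalings, other filters, DESeq2 1.42.0, limma-voom 3.58.1, the replicate number as a block, and libraries left out. Intervals and floors cover counting error only. The 10 genes and all lists were chosen with earlier results of these data known. Of each pathway list up to 4 called genes with the smallest p were named, of each marker list the 2 most abundant and the near-absent defining genes, and for Selp and Chl1 the 3 nearest profiles; Icam4 and Ncr1 were not analysed here. Values of some genes taken by these rules or lying next to the 10 are not reported here.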

Additional observations from a re-analysis of the deposited data

Results flagged for a closer look

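Of 66 groups of 4 values checked with Dixon's criterion, 2 held a library far from the other 3, both in genes that act with the adhesion molecules; chance alone flags about 1 in 20 groups. Lgals1 stood at 1608 CPM in control replicate 4, against 1698 to 1705 CPM in the other 3 controls. Mpzl1 stood at 13.2 CPM in control replicate 3, against 10.4 to 10.8 CPM in the other 3 controls. None of the groups of the 10 adhesion genes themselves was flagged.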

How the results depend on the processing

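Over 22 alternatives, 174 of 176 values of the 8 tested adhesion genes kept their direction and side of the threshold and 0 reversed. Both exceptions were Icam1, which made the number of these genes called higher 1 with scaling to total counts and 1 without knockdown replicate 2 (range 0 to 1 over libraries left out). Where Icam2 entered the fit, in 7 of the 22 alternatives (no filter, DESeq2, and without control replicate 2 or any 1 of the 4 knockdown replicates), 8 of the 10 genes were lower in place of 7, and without knockdown replicate 2 the calls reached 9 with Icam1. With a library left out, Icam2 met the filter through the controls only, the group where it is high. Its call is then not read as a test. The Sox6 ratio of 0.221 ran from 0.107 to 0.295 over libraries left out, where the exact p cannot go below 0.0571. Of 504 values of named pathway genes, 503 held; B4galt1 was the exception, with total count scaling. Fut7 gave no value with halved counts or the 1 CPM filter, where it was not tested and its list had 2 calls in place of 3. Calls over all genes ran from 6332 (adjusted p under 0.01) to 8971 (total count scaling). Same-numbered libraries did not deviate together (correlations -0.0313 to 0.0568), so the numbers were not taken as pairs; with the replicate block 7985 genes were called and the same count of 7 adhesion genes was lower. Lengths of the longest transcript moved control TPM levels to 4067 for Vcam1, 38.9 for Icam1, 7.48 for Alcam and 14.5 for Chl1. With the window ended at the RefSeq start site, 1 gene in place of 2 held TATAAA. Depth limits Icam2, L1cam and Sox6, each with under 100 counts in all.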
